A study of Mus musculus with 3 samples.

Results

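Lysosomal enzymes, lysosomal membrane proteins and their regulator were followed as 41 genes among the 19471 genes of the deposited table. The genes were chosen by symbol and by known role, and each of the 41 symbols matched 1 row. They comprise 10 cathepsins and the peptidase gene Tpp1, 9 glycosidases, 4 sulfatases, 6 genes of lipid breakdown, 2 genes of cholesterol egress, 7 membrane protein genes, the progranulin gene Grn and the transcription factor gene Tfeb.

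The libraries form 1 group of 3 biological replicates of wild-type mouse cortical astrocytes. The cells were isolated at postnatal day 1 and cultured for 7 days, and replicates 1, 2 and 3 came from pups 5, 6 and 8. Day 1 is the age in the sample titles and the design, whereas the library names carry P0 and Ctrl, and what Ctrl refers to is not stated. Poly(A) RNA was sequenced, and the library totals were 14380993, 25128038 and 9858626 reads in replicates 1, 2 and 3, a 2.55-fold range. With a single wild-type group there was no contrast of genotype, treatment or age, so the values below compare genes within libraries and the libraries with each other.

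Lysosomes are acidic organelles in which hydrolases break down protein, glycan and lipid that arrive by endocytosis, phagocytosis and autophagy. Most soluble hydrolases carry a mannose 6-phosphate tag that receptors in the Golgi recognise, and a proton pump in the lysosomal membrane keeps the lumen acid. Many lysosomal genes are targets of TFEB, which enters the nucleus when the kinase complex mTORC1 is inactive on the lysosomal surface. Inherited loss of many of these enzymes causes storage disease, often with damage to the brain. Both astrocytes and microglia hold lysosomes, and microglia, the macrophages of the brain, are rich in them.

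The labelled cell type was checked against marker genes. All 12 astrocyte markers were detected, with Gfap the highest at normalized read counts of 54430, 57624 and 44795 in replicates 1, 2 and 3. The glutamate transporter gene Slc1a3 had 22046, 23882 and 20080, and the water channel gene Aqp4 6443, 8395 and 6951. Of 15 microglial markers, 14 were in the table and each of the 14 averaged at least 100, so the cultures also held microglial transcripts. Their summed level was 35285, 27221 and 23674, against 171056, 171545 and 152445 for the astrocyte markers. No microglial marker in the table was at 0. Summed levels of the other lists were lower, at 9919 to 13695 for 5 ependymal genes, most of it Foxj1. For 5 oligodendrocyte precursor genes they were 6388 to 8872, most of it Olig1, whereas Sox10 had 22.8, 13.7 and 8.37 in replicates 1, 2 and 3. The sums were 1806 to 2337 for fibroblasts, 856 to 1043 for mural cells, 763 to 844 for endothelial cells, 238 to 447 for neurons and 148 to 206 for oligodendrocytes. Pdgfra counted in both the precursor and the fibroblast lists.

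Lysosomal transcripts were abundant. Of the 41 genes, all but Ctsk averaged at least 100 normalized reads, a level reached by 75.8% of all genes averaging at least 10. At least 1000 was reached by 28 of the 41, against 21.2% of all genes averaging at least 10. The median of the 41 genes was 1976, against 347 for all 13941 genes averaging at least 10. Divided by the union of annotated exons, so that genes can be compared, the median was 356 normalized reads per kilobase, against 71.7 for all genes, and 36 of 41 genes lay above that median of all genes. By the longest transcript of each gene, 3 of the 41 (Sgsh, Gla and Ctsk) lay below the median of all genes, 98.1, and Mcoln1 at 144 and Tfeb at 130 above it. The 41 genes took 1.75%, 1.59% and 1.46% of all reads in replicates 1, 2 and 3. The 95% Wilson bounds, which cover counting error only, ran from 1.75% to 1.76% for replicate 1, 1.58% to 1.59% for replicate 2 and 1.45% to 1.47% for replicate 3. Ctsd, Psap, Ctsb and Lamp1 made up 60.1%, 58.2% and 56.5% of these lysosomal reads.

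**Figure D1:**
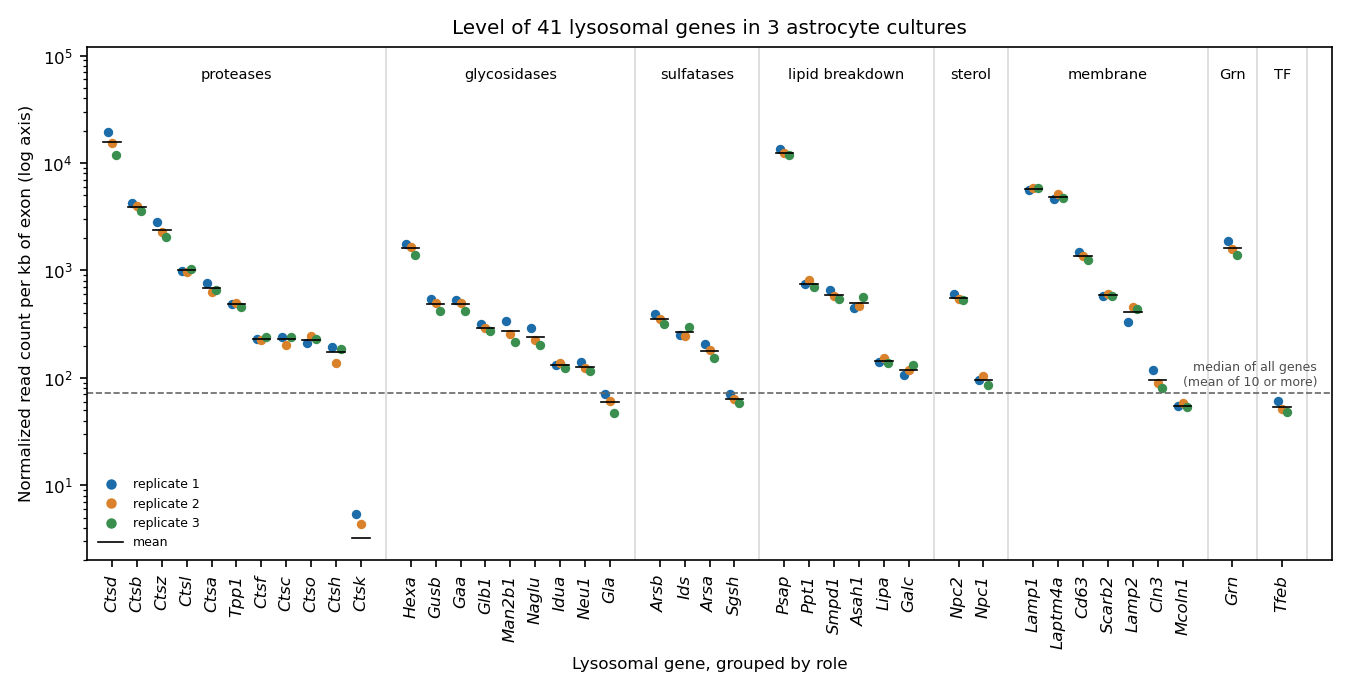
Normalized read count per kilobase of exon on a log axis for each of 41 lysosomal genes, grouped by role, with 1 point for each of the 3 libraries and a bar at the mean. Ctsd and Psap stood highest, at 15556 and 12498 per kilobase, and Gla, Sgsh, Mcoln1, Tfeb and Ctsk lay below the median of all genes, the dashed line at 71.7, with the exon union as length (by longest transcript Mcoln1 and Tfeb lay above the median of 98.1 by that length; Ctsk had 0 reads in replicate 3, which is not drawn).

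The protein-degrading enzymes covered the widest range. Ctsd, the main aspartic protease of lysosomes (ENSMUSG00000007891, mm10 chromosome 7, 142375911 to 142388038, minus strand), had normalized read counts of 45853, 36127 and 27734 in replicates 1, 2 and 3. Per kilobase of exon it averaged 15556 ± 3857 (SD, n = 3) and was the highest of the 41 genes. Replicate 1 was the highest and replicate 3 the lowest, a 1.65-fold range, and the spread exceeded read sampling (chi-square 4759 over 3 libraries). Ctsb, a cysteine protease (chromosome 14, 63122462 to 63145923, plus strand), had 25656, 23954 and 21588, with the same library highest. It averaged 3922 ± 338 per kilobase. Both values carry a limit of annotation: 34.4% of the exon bases of Ctsd belong also to the gene model Gm49369 on the same strand, which has no row in the table, and 12.8% of those of Ctsb overlap Fdft1 on the other strand.

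Among the 10 cathepsins followed here, most transcripts came from few genes. Of their summed level per kilobase, Ctsd gave 66.8%, 64.1% and 59.0% in replicates 1, 2 and 3, a mean of 63.3% ± 3.94 (SD, n = 3). Ctsb gave 16.3% ± 1.67 and the carboxypeptidase gene Ctsz 9.80% ± 0.419. Ctsl, an endopeptidase that can mature other cathepsins, gave between 3.41% in replicate 1 and 5.19% in replicate 3, and Ctsa, a carboxypeptidase that also protects beta-galactosidase and neuraminidase from breakdown, gave 2.83% ± 0.369. The papain-family genes Ctsf, Ctso and Ctsh and the dipeptidyl peptidase gene Ctsc each gave 0.721% to 0.973%. With the 3 other cathepsin genes of the table in the sum, Ctsd gave 56.2% ± 4.26 and Ctsb 14.4% ± 1.33, and Ctss came next with 11.2% ± 1.32, above Ctsz with 8.70% ± 0.247 (SD, n = 3).

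Ctsk, the collagen-degrading cathepsin of osteoclasts, stood apart from the others. It had 10, 14 and 0 reads in replicates 1, 2 and 3, or normalized read counts of 8.13, 6.60 and 0, and the count of 0 reads allows up to 3.59. With a mean of 4.91 it fell below the minimum for the test between libraries. Tpp1, a tripeptidyl peptidase lost in a childhood form of neuronal ceroid lipofuscinosis, had 2522, 2575 and 2377, libraries that lay close together.

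Among the enzymes that trim sugars from glycans, Hexa was the most abundant. It encodes a subunit of a hexosaminidase that removes N-acetylhexosamine from gangliosides, and had 3541, 3279 and 2780 normalized reads in replicates 1, 2 and 3. Per kilobase it averaged 1603 ± 194 (SD, n = 3), with replicate 1 the highest and replicate 3 the lowest. Gusb, the beta-glucuronidase gene, and Gaa, which encodes the enzyme that breaks down glycogen in lysosomes, averaged 486 ± 66.5 and 485 ± 56.0 per kilobase.

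Lower in this class were Glb1 for beta-galactosidase at 294 ± 21.1 per kilobase, the alpha-mannosidase gene Man2b1 at 270 ± 62.1, and Naglu, which acts on heparan sulfate, at 240 ± 47.1 (SD, n = 3). The alpha-iduronidase gene Idua stood at 131 ± 8.05 and the sialidase gene Neu1 at 127 ± 12.6. Gla, the X-linked alpha-galactosidase gene whose loss causes Fabry disease, was the lowest at 59.4 ± 11.6. It had 229, 198 and 154 normalized reads in replicates 1, 2 and 3, with replicate 3 the lowest.

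Sulfatases and lipid-degrading enzymes were less abundant than the leading proteases, with the exception of Psap. Per kilobase the sulfatase genes ranged from 356 ± 36.5 for Arsb, which acts on dermatan sulfate, to 64.1 ± 6.74 for Sgsh, which acts on heparan sulfate (SD, n = 3). Between them were Ids, the X-linked iduronate sulfatase gene, at 265 ± 28.9, and Arsa, which breaks down the myelin lipid sulfatide, at 180 ± 26.9.

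Psap encodes prosaposin, the precursor of the saposins that present sphingolipids to hydrolases (chromosome 10, 60277627 to 60302597, plus strand). It had 36817, 33783 and 32288 normalized reads in replicates 1, 2 and 3 and averaged 12498 ± 841 per kilobase. Ctsd exceeded it in each of the 3 libraries, although the ranges of the 2 genes over libraries overlapped. The enzymes that rely on saposins were far lower, with the acid ceramidase gene Asah1 at 493 ± 68.6 per kilobase and the galactosylceramidase gene Galc at 118 ± 12.4. Within libraries, Psap exceeded Galc per kilobase 107-fold ± 18.5 (SD, n = 3). That ratio leans on the annotated length of Galc, with 14879 bases in its exon union and 4439 in its longest transcript, by which Galc stood at 397 per kilobase and Psap at 12908.

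The remaining lipid enzymes were the palmitoyl-protein thioesterase gene Ppt1 at 754 ± 60.1 per kilobase, the acid sphingomyelinase gene Smpd1 at 592 ± 53.9, and Lipa, the acid lipase of cholesteryl esters, at 145 ± 8.79 (SD, n = 3). Cholesterol freed by the lipase leaves the lysosome through NPC2, which carries it in the lumen, and NPC1, which sits in the membrane. Npc2 had 3289, 2936 and 2853 normalized reads in replicates 1, 2 and 3, and Npc1 1072, 1170 and 978. Per kilobase Npc2 exceeded Npc1 5.89-fold ± 0.602 (SD, n = 3), and no library of Npc1 reached the lowest of Npc2.

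Membrane protein genes were dominated by Lamp1 and Laptm4a. Lamp1, a heavily glycosylated protein that lines the lysosomal membrane (chromosome 8, 13159161 to 13175338, plus strand), had 14924, 15566 and 15645 normalized reads in replicates 1, 2 and 3. Its libraries lay within 1.05-fold of each other. Laptm4a, which encodes a protein with several membrane spans, had 8204, 9095 and 8430. The 2 genes averaged 5749 ± 148 and 4837 ± 261 per kilobase (SD, n = 3). Cd63, a tetraspanin of late endosomes, followed at 1363 ± 119, and Scarb2, the receptor that carries beta-glucocerebrosidase to lysosomes, at 586 ± 11.9.

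Lamp2, the X-linked relative of Lamp1 with a role in autophagy, had 3138, 4354 and 4215 normalized reads, and replicate 1 was well below the other two. It averaged 409 ± 69.7 per kilobase, 0.0709 ± 0.0105 of Lamp1 (SD, n = 3). With its longest transcript of 3604 bases in place of an exon union of 9552 bases, its level was 1083 per kilobase and its rank among the 41 genes 10 in place of 20. Cln3, the gene of juvenile neuronal ceroid lipofuscinosis, stood at 95.6 ± 19.4 per kilobase. Mcoln1, which encodes the calcium-permeable channel mucolipin, had 412, 437 and 401 normalized reads, or 55.1 ± 2.46 per kilobase.

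Grn and Tfeb differed in level by more than an order of magnitude. Grn encodes progranulin, a secreted and lysosomal glycoprotein whose loss causes frontotemporal dementia or, when complete, a lysosomal storage disease, and had 6548, 5451 and 4790 normalized reads in replicates 1, 2 and 3. Its level per kilobase was 1611 ± 255 (SD, n = 3). Tfeb (chromosome 17, 47737030 to 47792419, plus strand) had 346, 291 and 274, or 53.6 ± 6.70 per kilobase, the lowest of the 40 genes that averaged at least 100. By its longest transcript Tfeb stood at 130 per kilobase, above Sgsh at 64.9 and Gla at 61.1. For both genes replicate 1 was the highest and replicate 3 the lowest.

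Ordered by level per kilobase, many genes could not be told from their neighbours. Of the 40 neighbouring pairs in that order, 17 kept it within each of the 3 libraries. In 12 of the 40, the ranges over the 3 libraries did not overlap. Of these 12 pairs, 5 were consecutive near the top, with Psap above Lamp1, Lamp1 above Laptm4a, Laptm4a above Ctsb, Ctsb above Ctsz, and Ctsz above Grn. The other 7 were Cd63 above Ctsl, Ctsl above Ppt1, Tpp1 above Lamp2, Arsb above Glb1, Ctso above Arsa, Npc1 above Sgsh, and Tfeb above Ctsk. Grn and Hexa overlapped, as did the run of Asah1, Gusb, Gaa and Tpp1 between 482 and 493. With the longest transcript as the length, the first 5 genes were the same 5, in another order for Laptm4a and Ctsb. Other pairs without overlap also turned by that length. Grn at 2392 per kilobase lay above Ctsz at 2383, Ppt1 at 1077 above Ctsl at 1050, and Lamp2 at 1083 above Tpp1 at 676. Naglu, Lamp2 and Galc moved by more than 5 ranks.

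Promoters are shown because the TFEB motif, a flanked E-box, is the sequence feature that lysosomal genes are best known to share. RefSeq promoter windows (GRCm38.p6, 250 bases before to 50 after a start) were held for 37 of the 41 genes, all but Asah1, Ctsb, Ctsh and Npc1. The E-box CACGTG was present in a window of 13 of these 37 genes, or 35.1%, against 8.09% of all 27025 genes with a window and 13.2% of the 2340 of them averaging at least 1000. The longer form TCACGTGA, which contains the E-box, was present in 5 genes, or 13.5%, against 1.12% of all genes and 2.86% of those averaging at least 1000. Each motif reads the same on both strands. These shares are descriptions, with no test and no correction for the base composition of promoters. Stretches upstream of the RefSeq start of the window are printed 5′ to 3′ on the strand of the gene, with the longer form in capitals.
Ctsd: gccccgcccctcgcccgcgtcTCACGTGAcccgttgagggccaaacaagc
Ctsa: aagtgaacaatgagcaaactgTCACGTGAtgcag
Cln3: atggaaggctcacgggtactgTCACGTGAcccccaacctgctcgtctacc
Mcoln1: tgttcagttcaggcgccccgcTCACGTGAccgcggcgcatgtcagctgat
Gla, first copy: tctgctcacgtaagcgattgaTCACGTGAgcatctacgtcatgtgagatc
Gla, second copy: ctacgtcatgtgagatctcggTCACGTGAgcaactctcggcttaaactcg

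In order, the stretches lie at chr7:142387898-142387947 on the minus strand, chr2:164833739-164833772 on the plus strand, chr7:126583330-126583379 on the minus strand, chr8:3500452-3500501 on the plus strand, and chrX:134601205-134601254 and chrX:134601172-134601221 on the minus strand. The first base in capitals is at position -99 from the RefSeq start of Ctsd, -13 of Ctsa, -122 of Cln3, -46 of Mcoln1, and -228 and -195 of Gla. By the gene spans of the annotation used for lengths, the stretches of Ctsd, Ctsa and Cln3 lie inside the gene. Most of the stretch of Mcoln1 does so too, and both of Gla lie outside. The windows of Ctsa and Cln3 belong to 1 of 2 annotated starts each. The genes that carry the longer form spanned most of the range of levels, from 55.1 per kilobase for Mcoln1 and 59.4 for Gla through 95.6 for Cln3 and 681 for Ctsa to 15556 for Ctsd. Of the other 8 genes with an E-box, Lamp1 had 4 copies in its window, and Arsa, Ctsf, Ctsl, Gaa, Glb1, Naglu and Sgsh had 1 each.

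The libraries were compared with each other by a chi-square test of each gene's reads, with expected reads from the library totals and Benjamini-Hochberg adjustment over all 13941 genes tested. Of the 40 lysosomal genes tested, 36, or 90%, passed at an adjusted p under 0.05, a spread beyond read sampling, against 55.4% of all genes. The test finds smaller differences in genes with more reads, and among genes averaging at least 1000 it called 26 of 28 lysosomal genes, or 92.9%, against 84.1% of all. The 4 genes that did not pass were Scarb2 (adjusted p = 0.395), Mcoln1 (0.474), Ctsf (0.196) and Idua (0.161) in the chi-square test. Differences were small, with a median ratio of highest to lowest library of 1.22 among the 36 genes and a range of 1.05 for Lamp1 to 1.65 for Ctsd. A pup and its sex, its culture and its library coincide here, and their shares of the spread cannot be told apart.

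In size, the spread of the lysosomal genes was close to that of all genes and slightly above that of genes of similar mean. The median SD of log2 values (normalized read count plus 1) was 0.14 over the 40 genes averaging at least 100, against 0.14 over all 10571 such genes and 0.12 over the 2954 averaging at least 1000. Each SD was also ranked among genes with 0.5 to 2 times the mean of that gene. The median percentile was 59.3 over the 41 genes, and 15 of 41 lay below the median of such genes. Only Ctsd at 0.36 and Man2b1 at 0.32 exceeded 0.3 among these 40, and 8.54% of all genes at that level did. Man2b1 had 2717, 2052 and 1741 normalized reads in replicates 1, 2 and 3, a 1.56-fold range. Its SD was larger than that of 97.0% of the 2310 genes with 0.5 to 2 times its mean. Ctsk, on its 24 reads, had the largest SD of the 41 genes at 1.77.

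At the other end were Scarb2 with an SD of 0.03, Lamp1 with 0.04 and Ctsf with 0.05. Scarb2 had 3612, 3760 and 3669 normalized reads in replicates 1, 2 and 3, and its SD was larger than that of 4.36% of genes of similar mean. For Ctsf the values were 1153, 1131 and 1210, libraries that all lay within 1.07-fold. Single membrane and soluble protein genes stood at both ends, since the membrane protein genes Cln3 and Lamp2 had SDs of 0.28 and 0.26, and the soluble enzyme genes Ctsl and Tpp1 0.06 each. By class, the median SD was lowest for the membrane protein genes at 0.08. It was 0.13 for proteases, 0.18 for glycosidases, 0.15 for sulfatases and 0.12 for lipid genes, and the difference between classes was not tested.

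**Figure D2:**
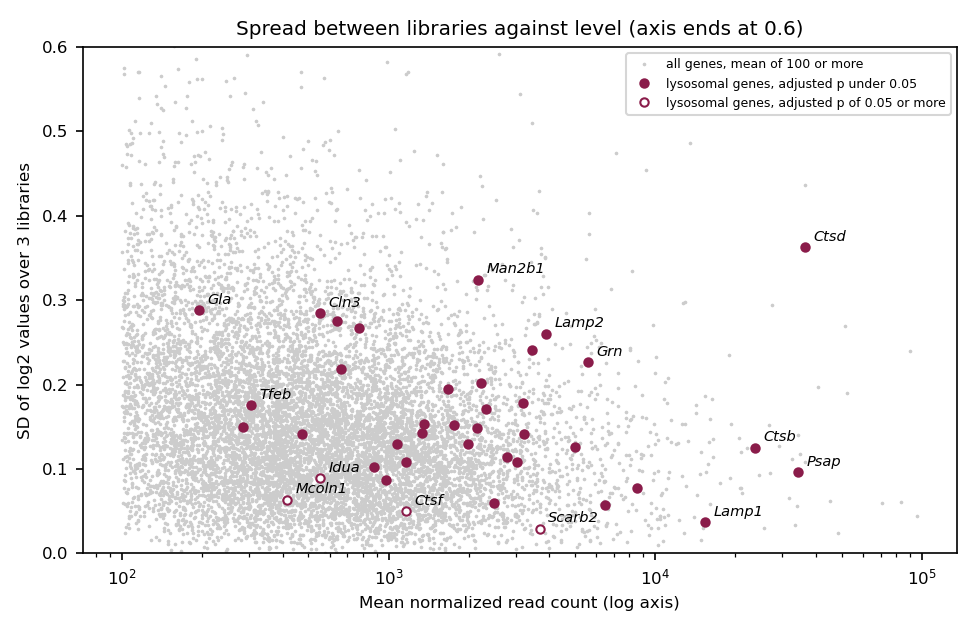
SD of log2 values over the 3 libraries against the mean normalized read count on a log axis, for genes averaging at least 100. All genes are grey and lysosomal genes dark red, filled where the adjusted chi-square p was under 0.05 and open for the 4 others, with Ctsd at 0.36, Man2b1 at 0.32 and Scarb2 at 0.03. The axis ends at 0.6, and 40 of all genes lie above it.

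The direction was shared by many of the genes. Of the 40 genes averaging at least 100, 23 had their highest value in replicate 1, or 57.5%, against 35% of all genes at that level. The highest value was in replicate 2 for 10 genes, against 29.7% of all, and in replicate 3 for 7, against 35.2% of all. Replicate 3 was the lowest for 27, or 67.5%, against 37.8% of all, and 29 were higher in replicate 1 than in replicate 3, against 49.5% of all. Replicate 1 was the highest and replicate 3 the lowest in 21 genes, a pattern of 23.3% of all genes. Median log2 deviations from the gene mean were 0.12, 0.00 and -0.10 in replicates 1, 2 and 3, whereas the medians over all genes were 0.00, 0.01 and 0.00. The libraries are unordered replicates, and these counts have no test of the genes as a list.

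**Figure D3:**
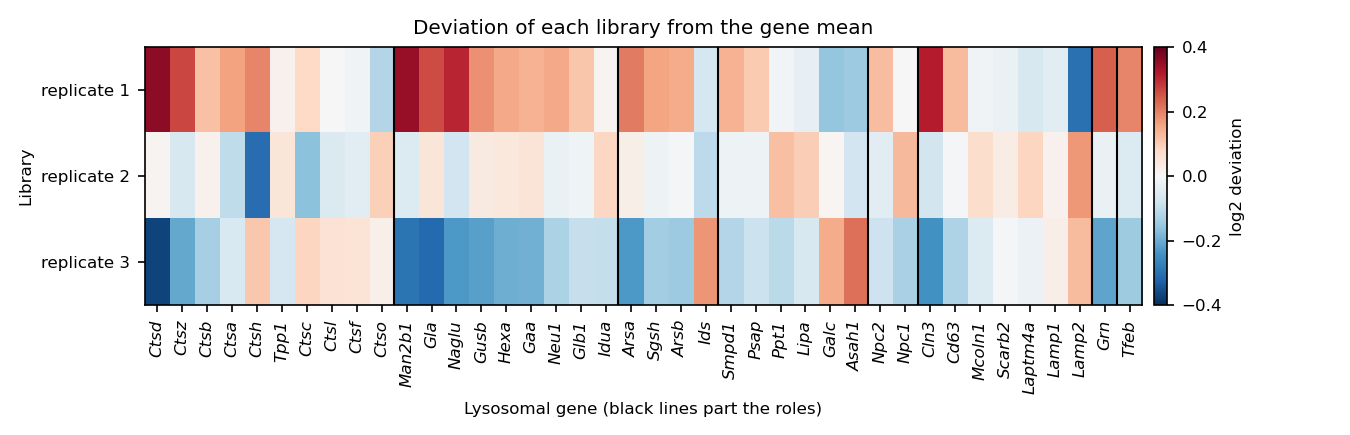
Colour gives the log2 deviation of each library from the gene mean for the 40 lysosomal genes averaging at least 100, with libraries in rows and genes in columns, parted by role. Red above blue marks genes such as Ctsd, Man2b1 and Naglu that were highest in replicate 1 and lowest in replicate 3, and Lamp2, Asah1 and Galc were lowest in replicate 1.

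Nearly all glycosidases followed that direction, and whether the classes differ was not tested. All 9 were higher in replicate 1 than in replicate 3, against 49.5% of all genes averaging at least 100. Of the 9, 8 had their highest value in replicate 1, or 88.9%, against 35% of all genes at that level. The chi-square test was passed by 8, or 88.9%, against 55.4% of all genes and 84.1% of those averaging at least 1000. Naglu had 778, 597 and 537 normalized reads in replicates 1, 2 and 3, and Gusb 2491, 2250 and 1889. Of 7 membrane protein genes, 2 (Cd63 and Cln3), or 28.6%, were highest in replicate 1, and 5, or 71.4%, passed the test. Cln3 had 678, 519 and 462. Among the other lysosomal membrane protein genes described below, however, 7 of 12, or 58.3%, were highest in replicate 1. So were 5 of 10 proteases (50%), 3 of 4 sulfatases (75%), 2 of 6 lipid genes (33.3%) and 1 of 2 cholesterol genes (50%).

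Of the other classes, 9 of the 10 proteases tested, all 4 sulfatases, all 6 lipid genes, Npc1 and Npc2, Grn and Tfeb passed the test. Beside them, 55.4% of all genes passed, and 84.1% of those averaging at least 1000. With only genes averaging at least 100 tested, 6952 of 10571 passed. Galc and Asah1 were lowest in replicate 1 and highest in replicate 3, with 1575, 1766 and 1944 normalized reads for Galc and 1501, 1576 and 1936 for Asah1. Ctsh, an aminopeptidase gene, was lowest in replicate 2, with 879, 621 and 826. The 3 X-linked genes did not share a direction: Gla was highest in replicate 1, Lamp2 was lowest there, and Ids had 1283, 1251 and 1521. The X-inactivation transcript Xist stood at 3000, 0.472 and 4.78 in the same libraries, and was thus high in replicate 1 alone. Its part in these values was not tested. Sex is not among the sample labels used here, and any difference of sex coincides with the library. Replicate 1 was the highest library for 23 of the 40 lysosomal genes averaging at least 100, or 57.5%, against 35% of all genes at that level. Whether this goes with sex was not tested.

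Leaving out a library changed some calls. Without replicate 1, 24 lysosomal genes passed the test, or 60%, against 35.8% of all genes, and the calls of Cln3, Ctsa, Ctso, Glb1, Lamp1, Lamp2, Naglu, Neu1, Npc2, Sgsh, Smpd1 and Tfeb ended. Without replicate 2, 29 passed, or 72.5%, against 40.2% of all genes, and Ctsc, Ctsh, Ctsl, Ctso, Laptm4a, Lipa and Npc1 no longer did. Without replicate 3, 29 passed, or 72.5%, against 37% of all genes, and Asah1, Gla, Ids, Lipa, Npc1, Sgsh and Tpp1 no longer did. The 14 genes that passed with any 1 library left out were Arsa, Arsb, Cd63, Ctsb, Ctsd, Ctsz, Gaa, Galc, Grn, Gusb, Hexa, Man2b1, Ppt1 and Psap. The share of all genes that did so was not computed, so this count has no background to be read against. Each such test rests on 1 library against another. The shares of all genes given for each library left out are not matched for level, and the test finds smaller differences in genes with more reads. Of the 41 lysosomal genes, 28 averaged at least 1000.

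Microglial markers had the same library highest. Of the 14 in the table, 12, or 85.7%, were highest in replicate 1, against 35% of all genes averaging at least 100. Of the 14, 13 were higher in replicate 1 than in replicate 3, against 49.5% of all genes at that level. The 14 markers had median log2 deviations of 0.29, -0.05 and -0.24 in replicates 1, 2 and 3. The receptor gene Csf1r had 7005, 5210 and 4335 normalized reads, the complement gene C1qa 4834, 3728 and 2973, and the chemokine receptor gene Cx3cr1 4202, 3505 and 2882. Tmem119 had 932, 752 and 621, and the purinergic receptor gene P2ry12, whose spread did not pass the test, 333, 303 and 286. The summed level in replicate 1 was 1.19 times that in replicate 3 for the 41 lysosomal genes and 1.49 times for the microglial markers. For Ctsd alone the ratio was 1.65, within the range of single microglial markers, which ran from 0.930 for Ptprc to 1.86 for Trem2. Astrocyte markers were highest in replicate 2 in 6 of the 11 genes averaging at least 100, with median deviations of 0.01, 0.09 and -0.07. Ependymal markers at that level were highest in replicate 1 in 3 of 4 genes, with median deviations of 0.24, -0.51 and 0.17. All 4 oligodendrocyte precursor markers at that level were highest in replicate 2 and higher in replicate 1 than in replicate 3. Summed levels in replicate 1 over replicate 3 were 1.19 for ependymal, 1.22 for oligodendrocyte precursor and 1.12 for astrocyte markers. The part of microglial or ependymal transcripts in the lysosomal values was not tested, and in bulk RNA more cells of a type cannot be told from more RNA per cell.

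**Figure D4:**
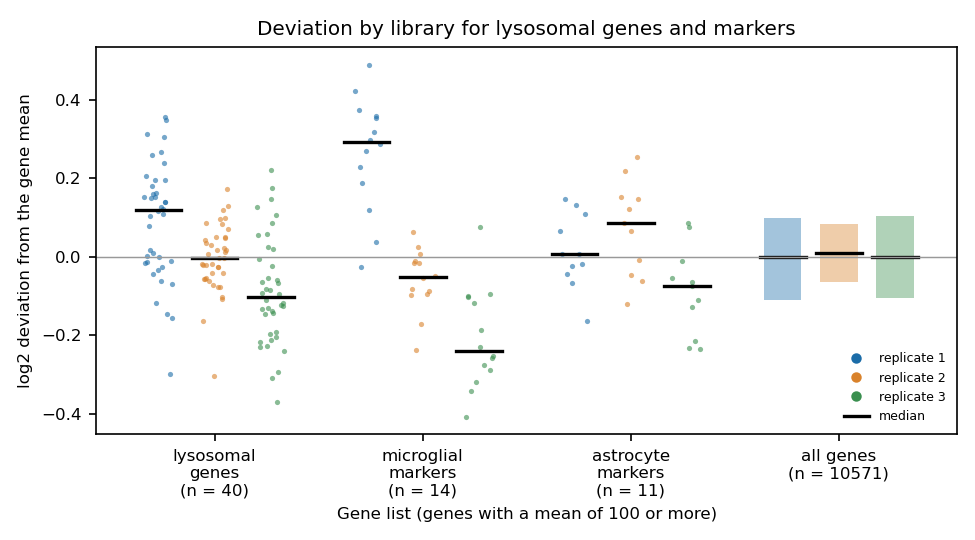
Log2 deviation of each library from the gene mean for lysosomal genes, microglial markers and astrocyte markers, 1 point per gene, beside boxes for the interquartile range of all genes. Bars mark medians, which were 0.12, 0.00 and -0.10 in replicates 1, 2 and 3 for the lysosomal genes and 0.29, -0.05 and -0.24 for the microglial markers.

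Further lysosomal hydrolases and cofactors were also most often highest in replicate 1. All 16 listed were in the table and 15 were tested, of which 12, or 80%, passed the chi-square test, against 55.4% of all genes. Among genes averaging at least 1000, 84.1% passed, and with only genes averaging at least 100 tested 6952 of 10571 did. Of the 15, 11 were highest in replicate 1, or 73.3%, against 35% of all genes averaging at least 100. The carboxypeptidase gene Scpep1 was the most abundant, with 10148, 8791 and 10814 normalized reads in replicates 1, 2 and 3. The asparaginyl endopeptidase gene Lgmn, whose product matures several cathepsins, had 7566, 6550 and 6266. Acp5, the acid phosphatase of osteoclasts, was the lowest, with 5, 17 and 3 reads.

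Of 12 other cathepsin genes, 3 were in the table. Ctss, the cathepsin of microglia and other antigen-presenting cells, had 4658, 3740 and 3944 normalized reads, Ctse had 33.3, 21.2 and 40.7, and Ctsw had 2 to 3 reads in each library. Per kilobase, Ctss exceeded Ctsl 3.04-fold ± 0.352 (SD, n = 3). That order leans on the annotated lengths, with 6489 bases in the exon union of Ctsl. In normalized reads not divided by length, Ctss was 0.720, 0.601 and 0.585 of Ctsl in replicates 1, 2 and 3. Cathepsin inhibitors were led by Cst3, which encodes the secreted inhibitor cystatin C, with 21561, 19359 and 15657 normalized reads, highest in replicate 1 as for Ctsd and Ctsb. It exceeded Ctsb per kilobase 3.78-fold ± 0.284 (SD, n = 3). Not divided by length, Cst3 was 0.840, 0.808 and 0.725 of Ctsb in replicates 1, 2 and 3. Cstb, the inhibitor of the cytosol, was steady at 769, 745 and 765, and the lowest of the 4 in the table was Cst6 with 2, 0 and 8 reads.

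Genes that build or supply the lysosome were present at moderate levels. Of 25 genes of the proton pump, 23 were in the table, 19 were tested and 16, or 84.2%, passed, against 55.4% of all genes and 84.1% of those averaging at least 1000. The accessory subunit gene Atp6ap1 had 3304, 3330 and 2561 normalized reads in replicates 1, 2 and 3 and the catalytic subunit gene Atp6v1a 2547, 2628 and 2455, a gene that did not pass. Atp6v0d2, an osteoclast form, had 1, 2 and 0 reads. In this list 9 of 19 genes were highest in replicate 2, and 6, or 31.6%, in replicate 1, near the 35% of all genes.

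All 9 genes for sorting enzymes to lysosomes were tested and 6, or 66.7%, passed, against 55.4% of all genes. All 9 averaged at least 100, and with only such genes tested 6952 of 10571 passed, a similar share. The sorting receptor gene Sort1 had 4090, 4193 and 4179 normalized reads and did not pass, the mannose 6-phosphate receptor gene M6pr had 2469, 2535 and 2765, and the adaptor gene Gga3, which did not pass, was the lowest at 211, 194 and 204. Their summed level differed little between replicate 1 at 11159, replicate 2 at 11075 and replicate 3 at 11160. Of the 9, 5, or 55.6%, were highest in replicate 1, against 35% of all genes averaging at least 100. Among 16 other lysosomal membrane protein genes, 13 were in the table and 8, or 61.5%, passed, close to the 55.4% of all genes, with Laptm5, a gene of blood-derived and microglial cells, the highest at 2529, 2196 and 1812. The channel gene Tpcn1 came next at 1122, 1096 and 1134 and did not pass. Cd68, a macrophage gene named after its value was seen, had 1305, 966 and 912. Mcoln2 was the lowest at 13.0, 16.0 and 5.98. Laptm5 also counted among the microglial markers. Of the 12 genes of this list averaging at least 100, 7, or 58.3%, were highest in replicate 1, against 35% of all genes at that level.

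TFEB relatives and nutrient-sensing genes were all in the table, 18 of 18, and 12, or 66.7%, passed the test, against 55.4% of all genes. Of the 18, 17 averaged at least 100, and with only such genes tested 6952 of 10571 passed, a similar share. Lamtor1, a subunit of the complex that anchors mTORC1 to lysosomes, had 1514, 1323 and 1181 normalized reads in replicates 1, 2 and 3, and the GTPase gene Rragd 1091, 1330 and 1202. Tfe3, named after its value was seen, encodes a relative of TFEB and had 1054, 991 and 1053, against 346, 291 and 274 for Tfeb. Per kilobase Tfe3 stood at 112 and Tfeb at 53.6. Tfec, a relative found mainly in macrophages, was the lowest of the list at 27.7, 19.8 and 10.8. In this list 8 of the 17 genes averaging at least 100 were highest in replicate 2, and 6, or 35.3%, in replicate 1, near the 35% of all genes.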

How the data were processed

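The authors deposited 1 signal value for each gene and library, namely read counts scaled for depth but not for length. DESeq2 and build mm10 are named in the submitters' processing notes. Which aligner, counting tool, strand setting and annotation release they used is not given in the sources used here. Dividing by the worth of 1 read (0.813, 0.472 and 1.20 in replicates 1, 2 and 3) turned 100% of the deposited values into whole reads within 0.05 reads. A count of 0 allows up to 3 reads, or 2.44, 1.42 and 3.59.

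Exon unions, positions and overlaps came from GENCODE vM21 (same build), which held 19372 of the 19471 identifiers. Exons of 15 of the 41 genes overlap another gene on the opposite strand, and the levels of Cd63, Ctsd and Ctsl are uncertain, since 11.0%, 32.4% and 6.46% of their 50-base stretches occur in other genes. Log2 values used a pseudocount of 1. Genes averaging at least 10, with no fewer than 30 reads over the libraries, entered the chi-square test at a threshold of 0.05. The test was tried on simulated reads for 13941 genes, where it found 73% of the genes altered 1.5-fold and 100% of the genes altered 3-fold. TMM factors came from edgeR 4.0.16 in R 4.3.3, and other steps used Python 3.11.15, pandas 2.3.3, numpy 2.4.6, SciPy 1.17.1 and matplotlib 3.10.9.

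The genes and lists were chosen with earlier results of these data known. Named are all 41 genes, and of each companion list the 2 highest by mean and the lowest. Alternatives covered scaling, filters, pseudocounts, lengths and leaving out each library.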

Additional observations from a re-analysis of the deposited data

How the results depend on the processing

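The number of lysosomal genes past the chi-square threshold was 36, and it was 35 with expected reads by size factors, 36 with TMM effective library sizes, 36 without the filter on the mean and 36 with only genes at a mean of 100 or more, against 24 to 29 with 1 library left out. The median level per kilobase, 8.47 on the log2 scale, moved by more than its spread between libraries under several alternatives. It was 9.13 with the longest transcript as length (all genes had 6.61 with that length), 8.56 without Ctsk, and 8.40 to 8.54 with 1 library left out. The median level not divided by length and the share of reads each moved by less than their spread between libraries under the alternatives run. The median spread is itself taken over the libraries, so it has no such yardstick. It started at 0.142 and stayed at 0.142 to 0.149 while all libraries were kept. Dropping replicate 1 or 3 lowered it to 0.101 or 0.109, whereas dropping replicate 2 raised it to 0.178. The number of genes highest in replicate 1 was 23, and 24 under TMM or CPM scaling, alternatives chosen after seeing the data. The library with the highest value stayed the same under both for 38 of 40 genes, all but Lamp1 and Ctsc. Low depth limits Ctsk, with 24 reads in all. No paired analysis was possible because there is only 1 group.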
